A study of Mus musculus with 9 samples.

Results

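Astrocyte genes were examined in hippocampal RNA-seq libraries of N4 Ube3am-/p+ mice, an Angelman syndrome model. Of the 54532 genes in the count table, 37 were taken by their symbol, without any threshold on their values. They form 2 groups, which are described separately, with 24 genes of astrocyte identity and 13 genes known for their induction in reactive astrocytes. The libraries came from 9 mice, of which 5 received Ant-134 and 4 received Scr. Ant-134 is a locked nucleic acid antimiR that binds and inhibits the microRNA miR-134, and Scr is its control of scrambled sequence. Each mouse was given 0.5 nmol by a single intracerebroventricular injection on postnatal day 21 (P21). Audiogenic seizure tests followed at P22, P24 and P26, and the saline-perfused hippocampus of the injected side was taken at P27, 24 h after the last test. All 9 mice carried the maternal Ube3a mutation on a 129Sv/Ev backcross and went through the seizure tests, so both groups share the genotype, the injection procedure and the audiogenic tests. Over tests on these days the study reported less severe seizures in Ant-134 mice than in Scr mice, and a tendency toward better survival. The seizures evoked in these 9 mice therefore need not have been equal in the 2 groups. An effect of Ant-134 on a gene cannot be told apart here from effects of seizure severity or of which mice survived. The values below compare Ant-134 with Scr under these conditions and do not compare either with wild-type or seizure-free mice. Sex is not given in the sources for these samples. Each library was 1 mouse, and the spread between libraries is therefore the spread between mice.

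Astrocytes take up glutamate and potassium around synapses, convert glutamate to glutamine, and are coupled to each other by gap junctions. Their identity genes include water, bicarbonate and amino acid transporters, metabolic enzymes, connexins and the transcription factor Sox9. After seizures and other injury astrocytes become reactive, a state known for raised intermediate filament proteins such as Gfap and vimentin and for secreted proteins such as Serpina3n, lipocalin 2 and Timp1. Cytokine receptors that signal through STAT3 are well known inducers of this state.

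Mature miR-134 is the molecule that Ant-134 binds, and its sequence shows what a site in an astrocyte gene would have to match. It is encoded on the plus strand at chr12:109734145-109734166 (GRCm38.p6, RefSeq), and the capitals mark bases 2 to 8, the seed.
mmu-miR-134-5p: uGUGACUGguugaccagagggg
A site was taken as CAGTCAC, the complement of the seed, or AGTCACA, the complement of bases 2 to 7 followed by A, on the mRNA strand of the longest annotated 3′ UTR. The 2 patterns overlap by 6 bases and form an 8-base site where both match. Such a site was found in 3 of the 24 identity genes (12.5%), in 2 of the 13 reactive genes (15.4%) and in 2973 of the 15279 tested genes with an annotated 3′ UTR (19.5%). All 5 sites are shown because they are the only matches among the 37 genes, with the matched bases in capitals. Aldoc is read at chr11:78326402-78326430, Acsbg1 on the minus strand at chr9:54605023-54605052, Slc4a4 at chr5:89238664-89238692, Steap4 at chr5:7980719-7980747 and Hspb1 at chr5:135889316-135889344 (GRCm38, plus strand unless stated).
Aldoc: attttgcctatAGTCACAgccagggccaa
Acsbg1: tgcagagacagCAGTCACAgctcgcctgac
Slc4a4: aaatcctttgtCAGTCACgtgttgctgtt
Steap4: cctcgctgcctCAGTCACgtgatgactca
Hspb1: gttgcccaaagCAGTCACgcagtcagcgg
Acsbg1 holds the 8-base site. The log2 fold changes of these 5 genes, Ant-134 against Scr, were 0.08 for Aldoc, 0.07 for Acsbg1, 0.03 for Slc4a4, 0.02 for Steap4 and -0.07 for Hspb1. None of the 5 had an unadjusted p below 0.05 in edgeR's quasi-likelihood test, beside 4.18% of all genes tested.

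The Ant-134 libraries held 28583298 to 38431058 counts in all genes and the Scr libraries 31985959 to 41978113. All 37 genes passed the filter on low counts, and the lowest count of any of them in a library was 92, for Lgals3. A count of 3, taken as the floor, corresponds to between 0.0709 and 0.107 CPM. Levels in single mice are given as CPM, the count of a gene relative to the library total after TMM scaling. Of 19782 genes tested, 827 (4.18%) had an unadjusted p below 0.05 in edgeR, of which 294 (1.49%) were higher and 533 (2.69%) lower in Ant-134 mice, and 0 (0.0%) passed Benjamini-Hochberg adjustment. DESeq2 without a filter gave 1027 genes of 37435 (2.74%), with 16 of 24678 (0.0648%) past adjustment. The tissue label was checked with the granule cell transcription factor Prox1, at 72.6 to 109 CPM, and the glutamatergic neuron transporter Slc17a7, at 1661 to 1837 CPM, in the 9 libraries. Choroid plexus markers differed most between libraries, with a summed level from 68.3 to 2607 CPM over 8 genes, and 5 blood genes reached 403 CPM in Ant-134 replicate 3 against at most 116 CPM in the other libraries.

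The relative levels of the genes were taken from FPKM, which is scaled to gene length. Among the identity genes Glul stood highest, at 283 ± 31.1 FPKM (SD, n = 9). Aldoc followed at 230.0 ± 18.1 FPKM and Atp1b2 at 117 ± 6.94 FPKM, and these 3 did not overlap each other within their SDs. Below them lay Mlc1, a membrane protein of astrocyte endfeet, at 56.9 FPKM, and Ntsr2, a neurotensin receptor, at 53.4 FPKM. The lowest were Sox9 at 8.18 FPKM, the urea transporter Slc14a1 at 7.73 FPKM and the glypican Gpc5 at 5.38 FPKM. Neighbours in the middle of this order, such as Slc25a18 at 32.6 and Hepacam at 32.5 FPKM, or Gja1 at 20.2 and Gjb6 at 19.6 FPKM, did not differ beyond their spread. Of the reactive genes only Gfap, at 273 ± 36.7 FPKM, and Serpina3n, at 159.8 ± 13.8 FPKM, reached the range of the 3 highest identity genes. Lcn2 lay at 29.1 ± 17.7 FPKM, and the remaining 10 reactive genes ranged from 21.9 FPKM for Vim to 0.750 FPKM for the oncostatin M receptor Osmr.

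**Figure D1:**
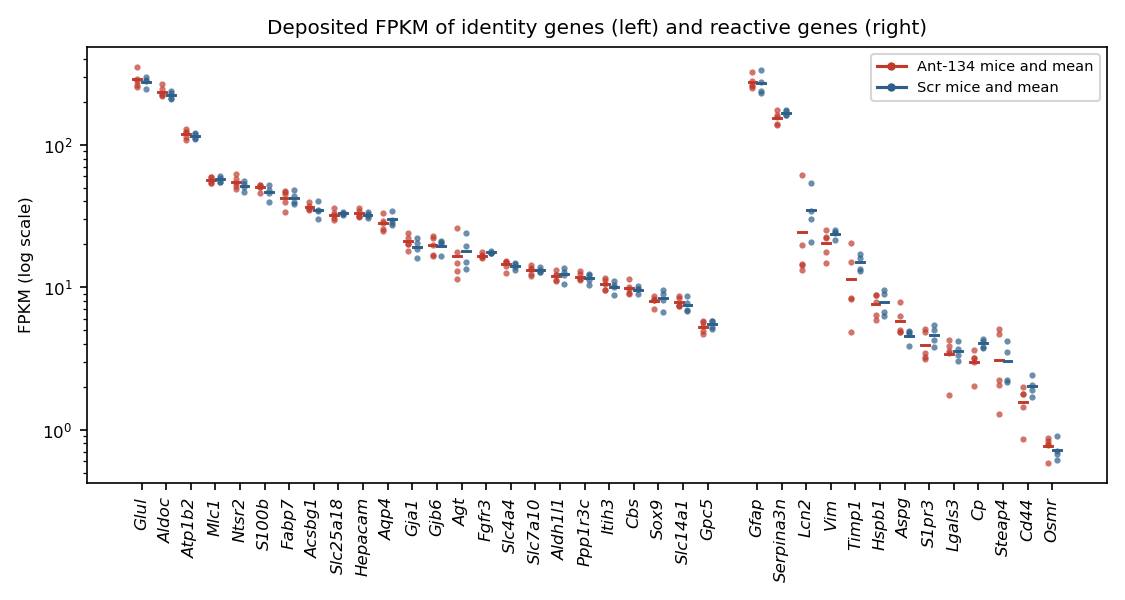
Deposited FPKM on a log axis for the 24 identity genes (left) and the 13 reactive genes (right), each ordered by its mean, with 1 point per mouse and a bar for the group mean. Gfap and Serpina3n lie among the most abundant genes of both groups, and the points of Lcn2, Timp1 and Steap4 spread most.

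The identity genes were at like levels in the 2 treatment groups. Of the 24 genes, 15 had a log2 fold change above 0 and 9 below 0, none had an unadjusted p below 0.05 in edgeR, and in none did the 9 mice separate by treatment. Over all genes 4.18% were called at this threshold and 1.54% did not overlap between groups. The median log2 fold change of the 24 genes was 0.03, within a range of -0.13 for Agt to 0.11 for Gja1, beside a median of 0.0026 over all genes tested. The 95% interval lay within 0.5 of no change on the log2 scale for 23 of the 24 genes, the exception being Agt. Their summed level was 4001 ± 266 CPM (SD, n = 5) in Ant-134 mice and 3884 ± 204 CPM (SD, n = 4) in Scr mice. In bulk tissue, fewer astrocytes and less RNA per astrocyte cannot be told apart, here and for all genes below.

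**Figure D2:**
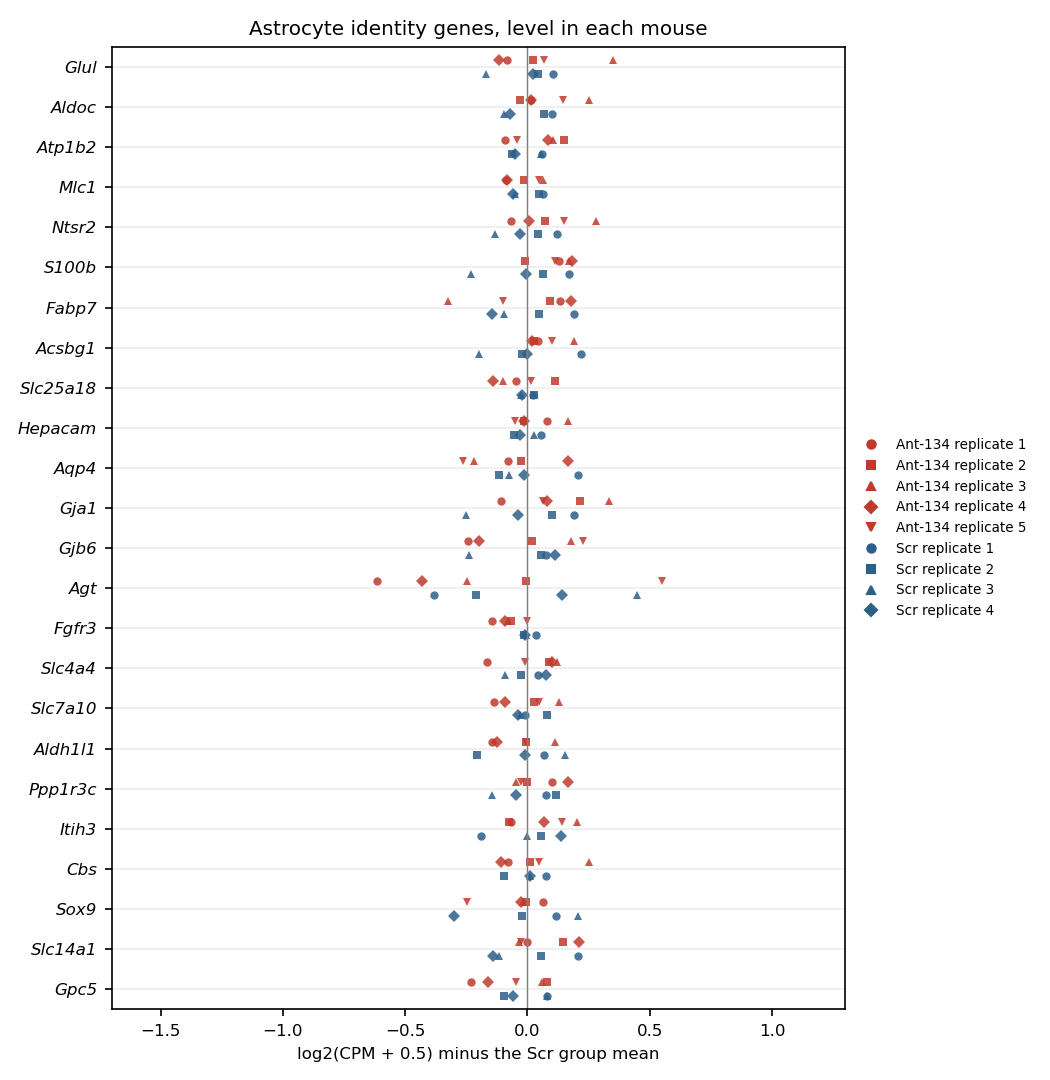
Level of each identity gene in each mouse, as log2(CPM + 0.5) minus the mean of the 4 Scr mice, with Ant-134 mice in the upper and Scr mice in the lower row of a gene. The points of the groups overlap in all 24 genes, and the spread is widest for Agt.

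Enzymes of glutamate and glucose handling led the group. Glul (ENSMUSG00000026473, chr1:153899944-153909723, plus strand) encodes glutamine synthetase. Its level in Ant-134 replicates 1 to 5 was 876, 941, 1183, 856 and 970.5 CPM, and in Scr replicates 1 to 4 it was 995, 955, 825 and 940.5 CPM. The highest value belonged to Ant-134 replicate 3 and the lowest to Scr replicate 3, and the groups overlapped. The group means were 965 ± 130.4 and 929 ± 73.1 CPM, a log2 fold change of 0.05 (SE 0.09, 95% interval -0.15 to 0.26) with p = 0.698 in the two-sided exact permutation test of the mean log2 level over all splits of the 9 mice. Aldoc (ENSMUSG00000017390, chr11:78322968-78327781, plus strand), a glycolytic aldolase, was measured at 739.9, 718, 873, 740.0 and 811 CPM in Ant-134 mice and at 786, 767, 686 and 698 CPM in Scr mice. Ant-134 replicate 3 was again highest, and 3 of the 5 Ant-134 values lay within the Scr range. The means of 776 ± 64.5 and 734 ± 49.6 CPM gave a log2 fold change of 0.08 (SE 0.06) with an exact permutation p of 0.317, and the value was 0.034 without Ant-134 replicate 3. Atp1b2 (ENSMUSG00000041329, chr11:69599736-69605942, minus strand) is a beta subunit of the sodium pump. It stood at 447, 528, 511, 505 and 462 CPM in Ant-134 mice and at 496, 456, 494 and 459 CPM in Scr mice. The Scr range lay inside that of the Ant-134 mice, with a log2 fold change of 0.04 (SE 0.05, 95% interval -0.07 to 0.16) and an exact permutation p of 0.484. Leaving out Ant-134 replicate 2 gave 0.015 and leaving out replicate 1 gave 0.074.

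The endfoot and calcium-binding genes showed as little separation. Aqp4 (ENSMUSG00000024411, chr18:15389394-15403684, minus strand), the water channel of astrocyte endfeet, was at 144, 149.9, 131, 172 and 127 CPM in Ant-134 mice. Scr mice had 176, 141, 145 and 152 CPM. The 2 lowest values, of replicates 3 and 5, were Ant-134 mice and the highest was Scr replicate 1. Ant-134 against Scr this gave a log2 fold change of -0.08 (SE 0.09, 95% interval -0.28 to 0.12, exact permutation p = 0.476). S100b (ENSMUSG00000033208, chr10:76253853-76261159, plus strand) encodes a calcium-binding protein that astrocytes also secrete. Ant-134 mice had 75.8, 68.8, 77.9, 78.7 and 74.9 CPM and Scr mice had 78.0, 72.5, 59.0 and 69.0 CPM. Scr replicate 3 lay below all others, while the remaining 8 mice lay between 68.8 and 78.7 CPM. The means of 75.2 ± 3.89 and 69.6 ± 7.97 CPM differed by 0.11 on the log2 scale (SE 0.07) with an exact permutation p of 0.198. Without Scr replicate 1 this value was 0.17 and passed the unadjusted threshold, and without Scr replicate 3 it was 0.040.

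Connexins form the gap junctions of the astrocyte network. Gja1 (connexin 43, ENSMUSG00000050953, chr10:56377330-56402513, plus strand) was measured at 184, 231, 251, 210.2 and 208 CPM in Ant-134 mice and at 227, 213, 167 and 193 CPM in Scr mice. The 2 highest values were of Ant-134 replicates 3 and 2 and the lowest was of Scr replicate 3, with overlap between the groups. Its log2 fold change of 0.11 was the largest positive value of the identity genes (SE 0.10, 95% interval -0.12 to 0.35, exact permutation p = 0.373). Gjb6 (connexin 30, ENSMUSG00000040055, chr14:57123303-57133611, minus strand) stood at 44.4, 53.4, 59.6, 45.9 and 61.7 CPM in Ant-134 mice and at 55.5, 54.7, 44.5 and 56.9 CPM in Scr mice. Both groups held a mouse near 44 CPM, and the means of 53.0 ± 7.83 and 52.9 ± 5.69 CPM gave p = 0.984 in the exact permutation test.

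The remaining genes described in full are a regulator, a folate enzyme and a hormone precursor. Sox9 (ENSMUSG00000000567, chr11:112782224-112787760, plus strand), a transcription factor of astrocyte specification, was at 36.2, 34.4, 34.1, 34.0 and 29.1 CPM in Ant-134 mice. In Scr mice it was at 37.5, 34.0, 40.0 and 28.0 CPM, so that the Ant-134 values lay inside the Scr range. Its log2 fold change was -0.06 (SE 0.09, exact permutation p = 0.730). Aldh1l1 (ENSMUSG00000030088, chr6:90486427-90600203, plus strand), a folate enzyme widely used to mark astrocytes, was at 50.6, 55.7, 60.5, 51.3 and 55.7 CPM in Ant-134 mice and at 58.6, 48.4, 62.3 and 55.5 CPM in Scr mice. Here too the Ant-134 mice lay inside the Scr range, with a log2 fold change of -0.04 (SE 0.07, exact permutation p = 0.722). Agt (ENSMUSG00000031980, chr8:124556534-124569706, minus strand) encodes angiotensinogen, which astrocytes make in the brain. It was at 21.8, 33.5, 28.3, 24.8 and 49.4 CPM in Ant-134 mice and at 25.7, 29.0, 46.1 and 37.2 CPM in Scr mice. Ant-134 replicate 5 and Scr replicate 3 were the 2 highest, and the ratio of the highest to the lowest mouse was 2.27, the largest of the identity genes. For Agt the log2 fold change was -0.13 (SE 0.28, 95% interval -0.79 to 0.53, exact permutation p = 0.603), and leaving out 1 mouse at a time moved it between -0.35, without Ant-134 replicate 5, and 0.04, without Scr replicate 3.

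The other 14 identity genes had log2 fold changes between -0.08 for the growth factor receptor Fgfr3 and 0.09 for Ntsr2. This set holds the transporters Slc4a4 (bicarbonate, log2 fold change 0.03), Slc7a10 (neutral amino acids, -0.00), Slc25a18 (mitochondrial glutamate, -0.03) and Slc14a1 (urea, 0.06). It also holds the fatty acid binding protein Fabp7 at 0.00, the cell adhesion protein Hepacam at 0.03 and Cbs, an enzyme of sulphur amino acid metabolism, at 0.03. Exons of 377 bases of Slc7a10 overlap Lrp3 on the other strand and 998 bases of Fgfr3 overlap G630022F23Rik. The strand setting of the counting is not given in the sources used here, so reads in these stretches could belong to either gene.

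A further list of 30 other astrocyte genes lay close to no change as well. None of the 30 had an unadjusted p below 0.05 in edgeR, beside 4.18% of all genes tested. Of the 30, 15 were above and 15 below 0, and the median log2 fold change was -6.8e-04. The 3 most abundant per length were Apoe, a lipid carrier, with a log2 fold change of -0.04 (SE 0.08), Cst3, a protease inhibitor, with 0.04 (SE 0.08), and Sparcl1, a synapse-promoting matrix protein, with 0.03 (SE 0.06).

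**Figure D3:**
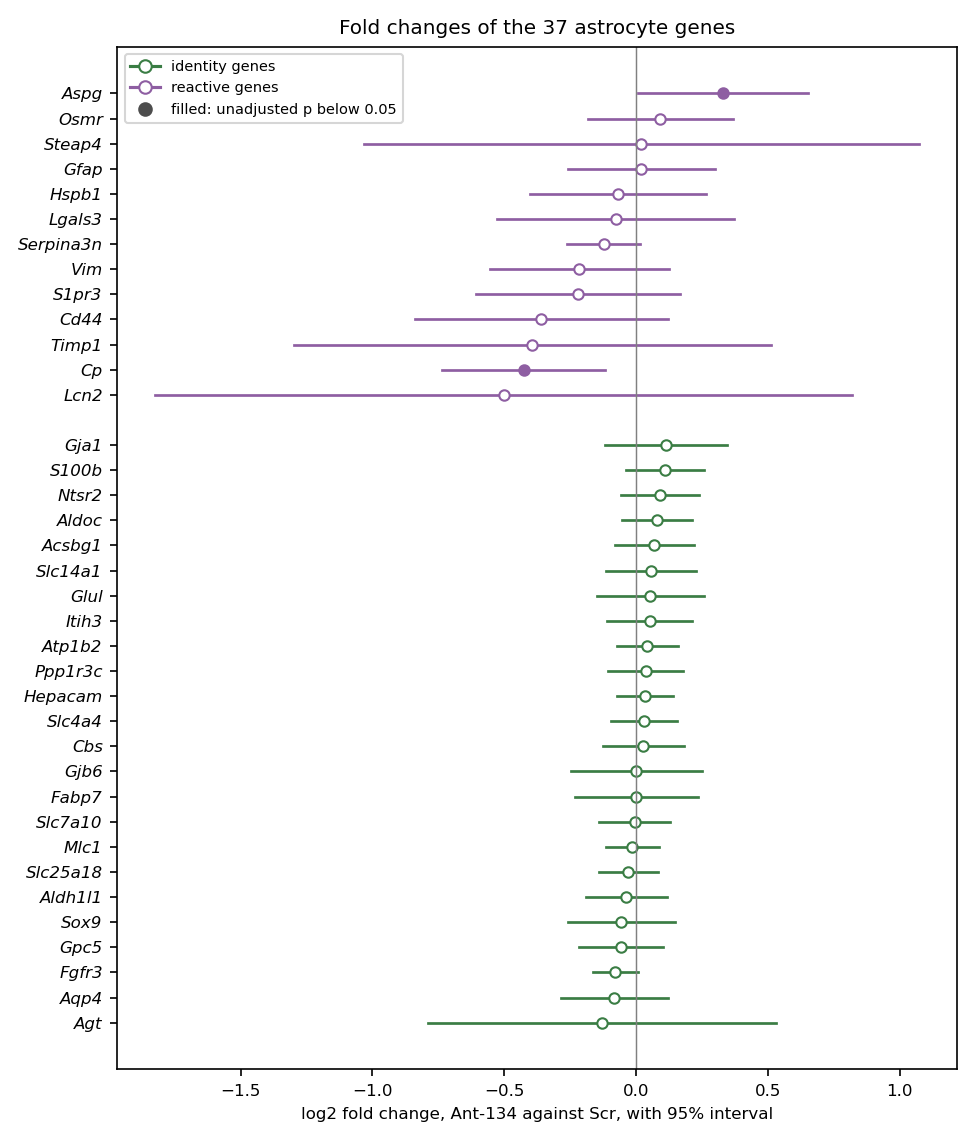
Log2 fold change of each of the 37 genes, Ant-134 against Scr, with its 95% interval from edgeR and filled points for an unadjusted p below 0.05. The identity genes (green) cluster around 0 with narrow intervals apart from Agt, and among the reactive genes (purple) Aspg and Cp are the filled points while Lcn2, Timp1 and Steap4 have the widest intervals.

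Of the 13 reactive genes 2 passed the unadjusted threshold of edgeR, in opposite directions. Cp was lower in Ant-134 mice, with a change of -25.5% (95% interval -39.9 to -7.81%), and Aspg was higher, with a change of 25.7% (95% interval 0.492 to 57.3%). These are 1 gene of 13 in each direction, beside 2.69% of all genes called lower and 1.49% called higher. In 9 genes the log2 fold change was below 0 and in 4 above 0, whereas 48.8% of all genes tested were below 0. The median log2 fold change was -0.12, from -0.50 for Lcn2 to 0.33 for Aspg. No gene passed adjustment, with a smallest adjusted p of 0.998 in edgeR. The median coefficient of variation between mice was 22.5% in the Ant-134 group and 15.1% in the Scr group, against 7.97% and 8.04% for the identity genes. The 95% interval lay within 0.5 of no change for 4 of the 13 genes. With a covariate for Y-linked gene levels, fitted because sex is not given, 4 genes were lower, which were Cp, Serpina3n, Timp1 and S1pr3, and the median was -0.25. In that fit 3.2% of all genes were lower and 1.55% higher. Leaving out Ant-134 replicate 1 also gave 4 lower genes, which were Cp, Vim, Serpina3n and Lcn2, beside 3.6% of all genes. The median of the reactive genes ran from -0.24 without Ant-134 replicate 4 to -0.08 without Ant-134 replicate 3. Their summed level was 1776 ± 214 CPM (SD, n = 5) in Ant-134 mice and 1846 ± 209 CPM (SD, n = 4) in Scr mice.

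**Figure D4:**
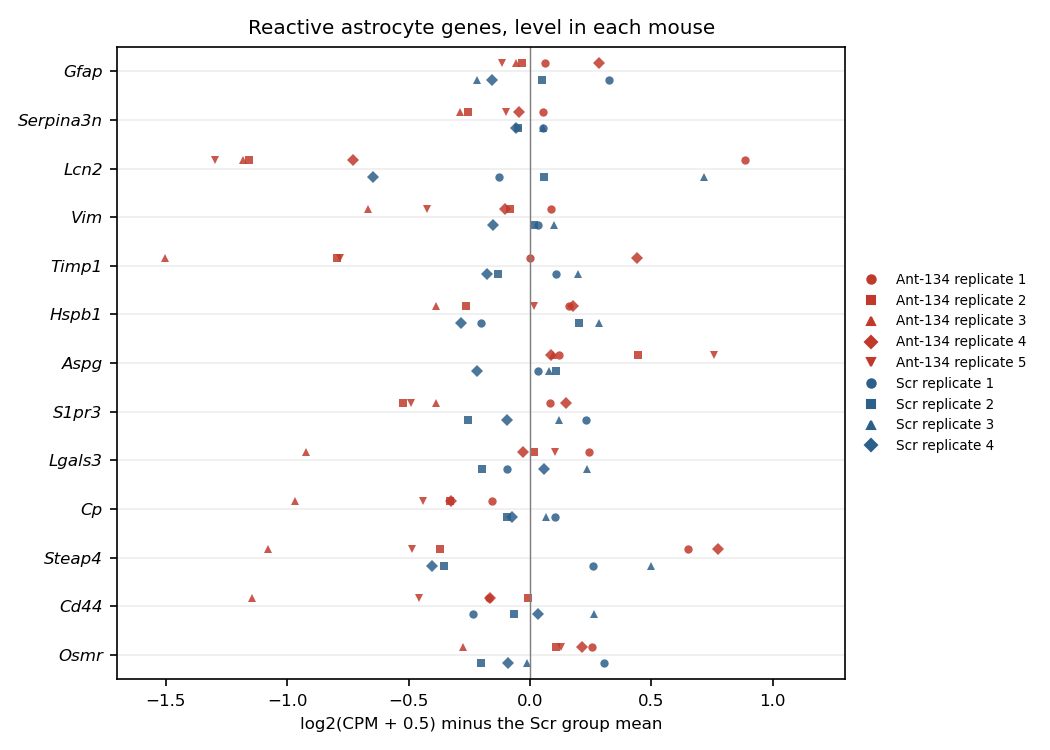
Level of each reactive gene in each mouse, as log2(CPM + 0.5) minus the mean of the 4 Scr mice, with Ant-134 mice in the upper and Scr mice in the lower row of a gene. Cp is the only gene whose groups do not overlap, and Ant-134 replicate 3 is the lowest of all mice in 9 of the 13 genes.

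Intermediate filament genes, the classical markers of reactive astrocytes, did not separate the groups. Gfap (ENSMUSG00000020932, chr11:102887336-102900912, minus strand) was at 1194, 1117, 1096, 1393 and 1056 CPM in Ant-134 mice and at 1430.3, 1183, 982 and 1023 CPM in Scr mice. The 2 highest mice, Scr replicate 1 and Ant-134 replicate 4, came from different groups, and 2 Scr mice were the lowest. The means of 1171 ± 134 and 1155 ± 203 CPM gave a log2 fold change of 0.02 (SE 0.12, 95% interval -0.26 to 0.30, exact permutation p = 0.810). Vim (vimentin, ENSMUSG00000026728, chr2:13573927-13582826, plus strand) was at 121, 107, 71.3, 106 and 84.3 CPM in Ant-134 mice and at 116, 115, 122 and 102 CPM in Scr mice. Ant-134 replicates 3 and 5 lay below all other mice, while Ant-134 replicate 1 lay next to the highest Scr mouse. The log2 fold change of -0.22 (SE 0.15, exact permutation p = 0.222) passed edgeR's unadjusted threshold only without Ant-134 replicate 1, at -0.30, and was -0.12 without Ant-134 replicate 3.

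Vim is also expressed by ependyma and by cells of the vessel wall and meninges. The summed level of 8 meningeal fibroblast markers was 94.3 to 179.9 CPM in Ant-134 mice and 149.7 to 204.7 CPM in Scr mice, and 6 of the 8 were lower at unadjusted p below 0.05 in edgeR, a call that 2.69% of all genes had. Ant-134 replicate 3, the lowest mouse for Vim, was also the lowest for these markers. Of the 10 microglia markers 5 were lower, beside the same 2.69%, with sums of 403 to 437 CPM in Ant-134 mice against 461 to 527 CPM in Scr mice. All 7 endothelial and all 7 mural markers had a log2 fold change below 0, with medians of -0.15 and -0.12. At the same threshold none of the endothelial markers and 1 of the mural markers were lower. None of 8 choroid plexus markers passed the test. All 6 ependyma markers had a log2 fold change below 0, with a median of -0.31, and 1 of them, Ccdc153, was lower. The summed ependyma level was 16.7 to 36.96 CPM in Ant-134 mice and 24.7 to 36.1 CPM in Scr mice. Relative to the Scr mean on the log2 scale, the median ependyma level was 0.49 in Ant-134 replicate 1, -0.79 in replicate 3, -0.63 in replicate 5 and 0.30 in Scr replicate 3. The lowest 2 of the 9 libraries, Ant-134 replicates 3 and 5, and the highest 2, Ant-134 replicate 1 and Scr replicate 3, were the lowest 2 and the highest 2 for Vim as well. The part of these cells in the values of the reactive genes was not tested.

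Genes of secreted proteins were the next group of reactive genes. Serpina3n (ENSMUSG00000021091, chr12:104406729-104414329, plus strand), a serine protease inhibitor, was at 362, 292, 285, 338 and 325 CPM in Ant-134 mice and at 362, 336, 362 and 335 CPM in Scr mice. In 3 Ant-134 mice it lay below every Scr mouse, and Ant-134 replicate 1 matched the highest of them. The means of 321 ± 32.0 and 349 ± 15.1 CPM gave a log2 fold change of -0.12 (SE 0.07, 95% interval -0.26 to 0.02, exact permutation p = 0.167). Serpina3n belongs to a family of near-identical neighbouring genes, so its counts are uncertain where reads could be split among them.

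Lcn2 (ENSMUSG00000026822, chr2:32384633-32388252, minus strand) encodes lipocalin 2, an iron-siderophore binding protein of the acute-phase response. Its levels were 161, 38.7, 38.0, 52.2 and 35.0 CPM in Ant-134 mice and 79.5, 90.5, 143 and 55.2 CPM in Scr mice. In 4 Ant-134 mice the value lay below all Scr mice, and the fifth, replicate 1, was the highest of the 9. This amounted to a log2 fold change of -0.50 (SE 0.56, 95% interval -1.82 to 0.82, exact permutation p = 0.238), which moved to -1.17 without Ant-134 replicate 1, where it passed the unadjusted threshold, and to -0.21 without Scr replicate 3. The choroid plexus marker Ttr was at 2417, 276, 638, 46.1 and 76.2 CPM in Ant-134 mice and at 241, 1006, 1932 and 56.9 CPM in Scr mice. The 3 mice with the highest Lcn2, Ant-134 replicate 1 and Scr replicates 3 and 2, were also the 3 with the highest Ttr, and the part of choroid plexus in the Lcn2 values was not tested. Timp1 (ENSMUSG00000001131, chrX:20870166-20874735, plus strand), an inhibitor of matrix metalloproteinases, was at 13.3, 7.46, 4.38, 18.3 and 7.54 CPM in Ant-134 mice and at 14.4, 12.1, 15.4 and 11.7 CPM in Scr mice. Ant-134 replicates 2, 3 and 5 lay below the Scr range and replicate 4 above it. Timp1 thus had a log2 fold change of -0.39 (SE 0.39, exact permutation p = 0.214), which moved to -0.71 when Ant-134 replicate 4 was left out and to -0.21 when replicate 3 was.

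Cp was the one gene of the 37 in which the groups did not overlap, a pattern that 0.895% of all genes tested showed in this direction. Cp (ENSMUSG00000003617, chr3:19957054-20009145, plus strand) encodes ceruloplasmin, a copper-binding ferroxidase that astrocytes carry on their surface. The Ant-134 mice had 34.9, 30.9, 19.6, 31.0 and 28.5 CPM and the Scr mice had 41.8, 36.4, 40.8 and 37.02 CPM. Every Ant-134 mouse was below every Scr mouse, by the narrowest margin between Ant-134 replicate 1 and Scr replicate 2, and Ant-134 replicate 3 was far below the rest. The means of 29.0 ± 5.71 (SD, n = 5) and 39.0 ± 2.70 CPM (SD, n = 4) gave a log2 fold change of -0.43 (SE 0.14, 95% interval -0.73 to -0.12). Its p was 0.0119 in edgeR, with an adjusted p of 0.998, and p = 0.0159 in the two-sided exact permutation test, where 0.00794 is the smallest value it can give. The value stayed below 0, with an unadjusted p below 0.05, in all 16 alternatives. Its extremes were -0.50, when Ant-134 replicate 1 was left out, and -0.32, when replicate 3 was, and adjusted p values ran from 0.359 to 1.00. Exons of Cp overlap Hps3 on the other strand over 108 of 9566 bases, and the 9 libraries together held 10222 counts for Cp and 7206 for Hps3. The summed meningeal fibroblast and ependyma markers were also lowest in Ant-134 replicate 3, at 94.3 and 16.7 CPM. The summed choroid plexus markers were at 686 CPM there, inside the Scr range of 80.5 to 2044 CPM. The part of these cells in the Cp values was not tested.

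Aspg (ENSMUSG00000037686, chr12:112106679-112127559, plus strand) encodes an asparaginase. The Ant-134 mice had 17.6, 22.2, 17.3, 17.2 and 27.7 CPM and the Scr mice had 16.6, 17.4, 17.1 and 13.8 CPM. Ant-134 replicates 5 and 2 stood above the others, whereas the remaining 3 lay beside the highest Scr mouse, replicate 2 at 17.4 CPM. The means of 20.4 ± 4.59 and 16.2 ± 1.65 CPM gave a log2 fold change of 0.33 (SE 0.15, 95% interval 0.01 to 0.65). Its p was 0.046 in edgeR, with an adjusted p of 0.998, and p = 0.127 in the two-sided exact permutation test. The call was lost in 6 of the 9 fits that left out a mouse and in 3 of the 7 other alternatives, with a value of 0.20 without Ant-134 replicate 5. Those 6 were the fits without Ant-134 replicate 2 or 5 and without each of the 4 Scr mice.

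The remaining reactive genes did not pass the threshold. Cell surface and signalling genes were the hyaluronan receptor Cd44 (log2 fold change -0.36, SE 0.21), the sphingosine-1-phosphate receptor S1pr3 (-0.22, SE 0.17) and the cytokine receptor Osmr (0.09, SE 0.13). When 1 mouse was left out Cd44 ran from -0.46 (Ant-134 replicate 2) to -0.21 (Ant-134 replicate 3), S1pr3 from -0.33 (Ant-134 replicate 4) to -0.14 (Scr replicate 1) and Osmr from 0.023 (Scr replicate 2) to 0.21 (Scr replicate 1). The metalloreductase Steap4 had a log2 fold change of 0.02 with an SE of 0.45, the second widest of the group, and ranged from 4.13 CPM in Ant-134 replicate 3 to 16.2 CPM in Ant-134 replicate 4. The small heat shock protein Hspb1 was at -0.07 (SE 0.16), and Lgals3, a galectin that microglia also express, was at -0.08 (SE 0.21).

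Some libraries stood apart over many of the genes at once. Ant-134 replicate 3 was the lowest of the 9 in 9 of the 13 reactive genes and at the same time the highest in 9 of the 24 identity genes. Its median over the reactive genes was -0.67 relative to the Scr mean on the log2 scale, against 0.12 over the identity genes. Among the identity genes, Ant-134 replicate 1 was the lowest of the 9 in 8 of the 24 and Scr replicate 3 in 7, with medians of -0.08 and -0.06. In the reactive genes Scr replicate 1 was the highest in 5 of the 13 and Scr replicate 3 in 3. Ant-134 replicates 2 and 5 also had negative medians over the reactive genes, of -0.25 and -0.43, while replicates 1 and 4 were at 0.09. The 4 Scr libraries lay between -0.15 and 0.12. The same replicate 3 had the highest blood gene sum and the lowest meningeal fibroblast sum of all libraries, and the part of these in its values was not tested.

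**Figure D5:**
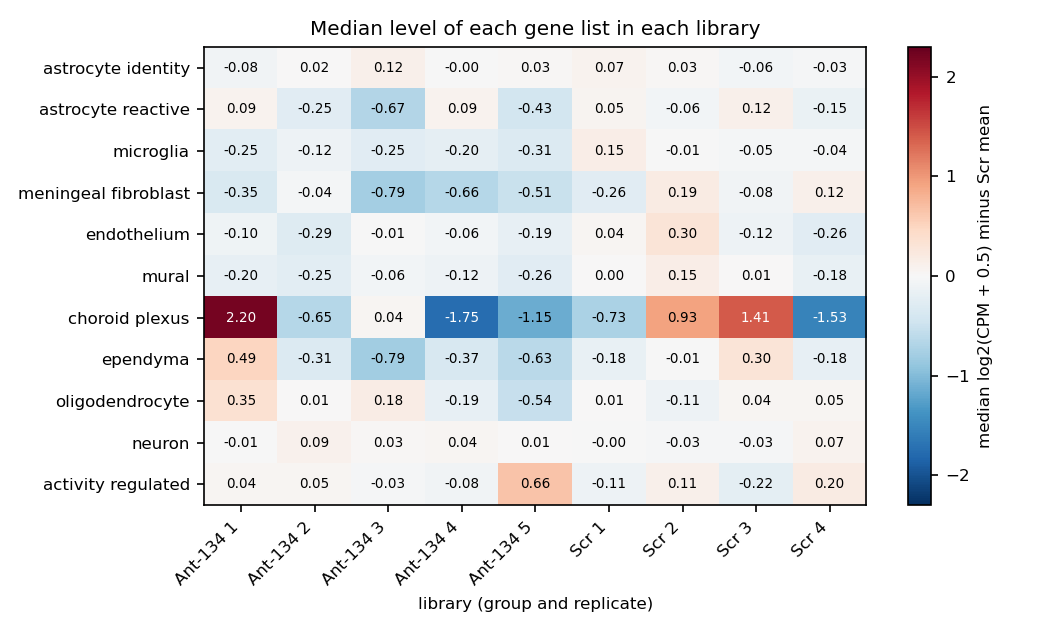
Median over the genes of each list (rows) of log2(CPM + 0.5) minus the Scr mean, in each library (columns), with red for above and blue for below the Scr mean. The identity genes lie between -0.08 and 0.12 in every library, the reactive genes fall to -0.67 in Ant-134 replicate 3, and choroid plexus varies most in both groups.

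Reactive astrocytes have also been sorted into a neuroinflammatory (A1) and an ischaemic (A2) programme, taken here as lists that hold none of the 13 genes above. Among 12 A1 genes 4 were lower at unadjusted p below 0.05 in edgeR, 0 were higher, beside 2.69% lower and 1.49% higher over all genes, and the median log2 fold change was -0.50. H2-D1, an MHC class I heavy chain, ranged from 52.4 to 98.7 CPM in Ant-134 mice and from 106 to 126.3 CPM in Scr mice (log2 fold change -0.79, SE 0.18). Serping1, the inhibitor of complement C1, ranged from 12.4 to 21.9 CPM in Ant-134 mice and from 22.5 to 25.3 CPM in Scr mice (-0.46, SE 0.13). The groups did not overlap in either gene, which 0.895% of all genes showed in this direction. Psmb8, a subunit of the immunoproteasome, was lower by 0.56 on the log2 scale (SE 0.17) and the interferon-induced GTPase Gbp2 by 0.70 (SE 0.27), with overlapping groups. By library, the median of the A1 genes relative to the Scr mean on the log2 scale was 0.013 in Ant-134 replicate 1 and -0.28, -0.94, -0.57 and -0.48 in replicates 2 to 5, against -0.086 to 0.080 in Scr mice. Their summed level in Ant-134 replicate 1, 404 CPM, lay inside the Scr range of 344 to 429 CPM, and the other 4 Ant-134 mice lay below it at 205 to 261 CPM. Without Ant-134 replicate 1 the lower genes were 7 of 12, beside 3.6% of all genes in that fit. They were 3 or 4 of 12 when any other mouse was left out. The number of all genes called moved between these fits too. Without Scr replicate 2 or Scr replicate 4, 1 A1 gene was higher. Complement C3 had a log2 fold change of -0.85 with an SE of 0.72 and did not pass. Microglia, endothelium and border cells also express H2-D1 and Psmb8. The summed microglia level was 403 to 437 CPM in Ant-134 mice and 461 to 527 CPM in Scr mice. Relative to the Scr mean on the log2 scale, the microglia median was -0.25, -0.12, -0.25, -0.20 and -0.31 in Ant-134 replicates 1 to 5. Of the 6 border macrophage markers 3 were above and 3 below 0. Among them 1, Ms4a7, was lower (log2 fold change -1.02, SE 0.30), beside 2.69% of all genes, with 12 to 74 counts per library. The ependyma median was 0.49 in Ant-134 replicate 1 and -0.31, -0.79, -0.37 and -0.63 in replicates 2 to 5, highest and lowest in the same Ant-134 mice as the A1 median. The meningeal fibroblast median was -0.35, -0.04, -0.79, -0.66 and -0.51 in Ant-134 replicates 1 to 5, and choroid plexus markers peaked in Ant-134 replicate 1 at 2607 CPM. The part of these cells in the A1 values was not tested.

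Of the 12 A2 genes 11 could be tested, since Slc10a6 had 1 to 15 counts per library. Of the 11, 2 were lower, beside 2.69% of all genes. Tm4sf1, a tetraspanin-like membrane protein, was lower by 0.28 on the log2 scale (SE 0.11) and Emp1, an epithelial membrane protein, by 0.43 (SE 0.19). The other 9 did not pass, and the median log2 fold change of the 11 was -0.22. By library the median was -0.64 in Ant-134 replicate 3 and -0.26 in replicate 5, and the other 3 Ant-134 mice lay between -0.046 and 0.032. The count of lower genes rested on single mice. It was 0 without Ant-134 replicate 3 or Scr replicate 3 and 1 without Ant-134 replicate 5. It was 3 without Ant-134 replicate 2 or 4, and 4 without Scr replicate 4. The number of all genes called also moved between these fits, so these counts cannot be read alone. Higher genes, of which there were 0 with all mice, numbered 2 without Ant-134 replicate 5, and 1 when Scr replicate 1 or Ant-134 replicate 1 or 3 was left out. The ependyma markers were likewise lowest in Ant-134 replicates 3 and 5, and the meningeal fibroblast markers were lowest in replicate 3. The endothelial median was -0.0062 in replicate 3, the highest of the Ant-134 mice, although all 7 endothelial markers had log2 fold changes below 0. The part of these cells in the A2 values was not tested. No gene of the A1 or A2 list passed adjustment, with adjusted p values of 0.987 or more in edgeR.

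The STAT3 cytokine pathway acts upstream of Gfap and other reactive genes. Of its 16 genes 13 could be tested and none passed the unadjusted threshold of edgeR, beside 4.18% of all genes tested. Their median log2 fold change was -0.02. The ligands Il6, Cntf and Osm had at most 3, 9 and 20 counts in any library, and were not tested. The most abundant were the phosphatase Ptpn11, with a log2 fold change of 0.00 (SE 0.04), the kinase Jak1, with 0.04 (SE 0.06), and the receptor Cntfr, with -0.02 (SE 0.06). The STAT core motif TTCNNNGAA, which reads the same on both strands, was searched in RefSeq promoter windows of 250 bases before to 50 bases after a start site (GRCm38.p6). It was found in 2 of the 13 reactive genes (15.4%), in 4 of the 20 identity genes with a window and in 2582 of all 27025 genes (9.55%). The 2 reactive genes are shown with the motif in capitals, since neither of the 2 reactive genes that passed the threshold, Cp and Aspg, held a match in its window. Gfap is read on the minus strand at chr11:102897184-102897212 and Steap4 on the plus strand at chr5:7960346-7960374.
Gfap: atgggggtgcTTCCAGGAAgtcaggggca
Steap4: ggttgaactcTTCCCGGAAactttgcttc
Both genes lay near 0 in the comparison, with log2 fold changes of 0.02 each, and differed in the spread between mice, with a ratio of the highest to the lowest mouse of 1.46 for Gfap and 3.93 for Steap4.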

How the data were processed

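Poly-A-selected RNA of 9 hippocampi was sequenced in paired-end mode. Per the labels and the study's methods, the authors discarded reads of low quality or with adapter sequence, aligned the rest to GRCm38 (mm10) with HISAT2 2.0.5 and counted them per gene with featureCounts 1.5.0-p3, with CASAVA 1.8 named in the submitters' processing notes. The strand setting and the annotation release are not given in the sources used here. The authors deposited counts, without normalization, and FPKM values, which are scaled to gene length and library total. Every value column matched 1 sample by name (0 unmatched). Groups and replicate numbers came from the sample labels.

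The deposited counts were tested in edgeR 4.0.16 (R 4.3.3) with TMM scaling, filterByExpr at a minimum count of 10, and the robust quasi-likelihood test of Ant-134 against Scr, with no covariate. P-values were adjusted by Benjamini-Hochberg over all 19782 genes tested. The counts of genes use an unadjusted p below 0.05, the threshold of the study. SEs and 95% intervals were computed from the F statistic. Genes described in full were also compared by a two-sided exact permutation test of the mean log2 CPM, without adjustment. The script was tested on simulated data with 200 changed genes. Alternatives were DESeq2 1.42.0 without a filter, its size factors in edgeR, no filter, the replicate number as a block, a term for the level of Y-linked genes (sex is not given), limma 3.58.1 on log2(FPKM + 1) or log2(FPKM + 0.1) where the mean FPKM was 0.1 or more, and leaving out each mouse. The pseudocount makes limma's fold changes of low genes too small. Chi-square per gene between libraries of a group was 8.30 to 21.1, so no library was a copy of another. Library totals set the counting error, and floors cover counting error only, since PCR copies cannot be told apart.

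Genes described in full were those with an unadjusted p below 0.05 or without overlap between groups, the 3 identity genes highest in FPKM, Aqp4, Aldh1l1, Sox9, Gja1, Gjb6, Gfap, Vim, Serpina3n, Lcn2, Timp1 and the 3 of each group with the largest absolute log2 fold change. From related lists these were the genes past the threshold and up to 3 of the most abundant. The other genes are outside this rule and were named after their values were seen. The members and all lists were chosen with earlier results of these data known. 3′ UTRs were read from GENCODE M21 (GRCm38), which holds all 37 genes, and the miRNA and promoter windows are from RefSeq (GRCm38.p6), which matched 33 of the 37 genes.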

Additional observations from a re-analysis of the deposited data

Results flagged for a closer look

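Lcn2 in Ant-134 replicate 1 stood far from the other mice of its group, at 161 CPM against 35.0 to 52.2 CPM in the other 4. By Dixon's criterion this was the only such value among 78 groups of values, where chance alone would give about 3.9. These were the CPM values of the 37 genes and the median log2 levels of the 2 gene groups, in each treatment group. Without this mouse the log2 fold change of Lcn2 was -1.17 in place of -0.50. Ant-134 replicate 1 also had the highest summed level of choroid plexus markers, 2607 CPM, and the part of that tissue in the Lcn2 value was not tested.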

How the results depend on the processing

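Of 592 values of the 37 genes under 16 alternatives, 519 kept their direction and their side of the unadjusted threshold. Cp passed in all 16 alternatives and Aspg in 7.

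No pairing of the mice by replicate number was seen. The correlation of deviations between same-numbered mice was -0.15, -0.07, -0.05 and 0.05, and 0 of 4 correlated best with its own number. The study describes the Scr mice as littermates of the Ant-134 mice. The litter of each mouse is not given in the labels, and the main fit treats the mice as independent. With the replicate number as a block, 808 genes were called in place of 827, 2 passed adjustment, and 1 identity gene was lower (Fgfr3, -0.10). The block also turned Gjb6 to -0.062 and Sox9 to 0.0023.

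Counts of called genes moved as follows. Adjusted calls were 16 in DESeq2, 14 with no filter in edgeR and 0 to 17 when 1 mouse was left out (17 without Ant-134 replicate 1). With no filter 1775 genes were called, 564 higher and 1211 lower, with 0 reactive genes higher and 2 lower (Cp and Serpina3n). With the Y-linked covariate 306 genes (1.55%) were higher and 634 (3.2%) lower, with 2 identity genes higher (Gja1 and Ntsr2) and 4 reactive genes lower (Cp, Serpina3n, Timp1 and S1pr3). It turned Slc7a10 to 0.011, Fabp7 to -0.018 and Steap4 to -0.25. On FPKM limma called 450 and 471 genes higher, with 0 reactive genes higher under either pseudocount, and turned Gjb6 to -4.5e-04 and -7.2e-04, Fabp7 to -0.0023 and -0.0025 and Steap4 to -0.056 and -0.10. Slc7a10 was 1.4e-05 in DESeq2 and 7.4e-04 with its size factors. The cause of these shifts was not tested.

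Leaving out 1 mouse gave 194 to 386 genes higher (194 without Scr replicate 3), 0 to 2 identity genes higher, 0 to 1 identity genes lower, 0 to 1 reactive genes higher and 1 to 4 reactive genes lower (4 without Ant-134 replicate 1, where 704 genes, 3.6% of all tested, were lower). Other identity genes kept their sign over wide ranges, among them Gja1 (0.037 to 0.18), Aqp4 (-0.15 to -0.012), Slc14a1 (0.010 to 0.13), Acsbg1 (0.0073 to 0.14), Ntsr2 (0.039 to 0.13), Slc25a18 (-0.068 to -0.0034) and Gpc5 (-0.095 to -0.016). The median log2 fold change of the identity genes ranged from -0.0061 to 0.05 and that of the reactive genes from -0.24 to -0.08. The sign turned in 38 of these 333 fold changes, over 17 genes that were not called. Their ranges were -0.10 to 0.017 for Aldh1l1, -0.072 to 0.059 for Gjb6, -2.4e-04 to 0.075 for Slc4a4, -0.040 to 0.028 for Slc7a10, -0.030 to 0.094 for Glul, -0.15 to 0.016 for Sox9, -0.035 to 0.0038 for Mlc1, -1.2e-04 to 0.056 for Hepacam, -0.033 to 0.060 for Cbs, -0.046 to 0.073 for Fabp7, -0.0087 to 0.078 for Ppp1r3c, -0.011 to 0.10 for Itih3, -0.35 to 0.044 for Agt, -0.051 to 0.14 for Gfap, -0.16 to 0.036 for Hspb1, -0.24 to 0.22 for Steap4 and -0.17 to 0.084 for Lgals3.

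With 9 mice the median 95% half-width was 0.15 for the identity genes and 0.34 for the reactive genes on the log2 scale. Differences of about this size or smaller could be missed for a typical gene of each group. Every gene had 92 counts or more in each library.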

Other observations

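Fgfr3, a growth factor receptor of astrocytes, was singled out after its values were seen. It had the smallest p value of the identity genes, at 115, 121, 120.0, 119 and 127 CPM in Ant-134 mice and 130.0, 125.5, 126.3 and 125.97 CPM in Scr mice. In 4 of the 5 Ant-134 mice it lay below every Scr mouse. The log2 fold change was -0.08 (SE 0.04). Its p was 0.0707 in edgeR and p = 0.0397 in the two-sided exact permutation test, before any correction for the 37 genes.

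Socs3, the feedback inhibitor that STAT3 induces, was also named after its values were seen. It ranged from 6.98 to 16.4 CPM in Ant-134 mice and from 4.25 to 9.39 CPM in Scr mice, with a log2 fold change of 0.59 (SE 0.31, 95% interval -0.10 to 1.29 from edgeR). The summed level of 8 activity-regulated genes reached 548 CPM in Ant-134 replicate 5, while the other libraries had 319 to 409 CPM.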
